A study of Mus musculus with 5 samples.

Results

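The nuclear-encoded genes of the mitochondrial respiratory chain were followed through 5 single-nucleus libraries of mouse hippocampus. Members were chosen by symbol alone: gene features starting with Ndufa (without the Ndufaf assembly factors), Ndufb, Ndufc, Ndufs, Ndufv, Cox4 to Cox8, Uqcr or Atp5, together with Sdha, Sdhb, Sdhc and Sdhd. The rule gave 86 of 32285 gene features. Complex I had 39 members, complex II 4, complex III 8, complex IV 18 and complex V 17. All 86 were found in the GENCODE vM21 annotation of GRCm38, 85 as protein-coding genes and Ndufb1-ps as a pseudogene.

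Complexes I to IV pass electrons from NADH and succinate to oxygen and, except for complex II, pump protons across the inner mitochondrial membrane, and complex V uses the proton gradient to make ATP. All 4 subunits of complex II and most subunits of the others are encoded in the nucleus and imported, while a few core subunits of complexes I, III, IV and V are encoded by mitochondrial DNA. Neurons rely heavily on this pathway to restore ion gradients after firing, and fast-spiking interneurons are known for a high density of mitochondria.

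Every nucleus gave both RNA and open chromatin (10x Multiome), and there was 1 library per genotype. The genotypes were wild type, 5xFAD (a transgenic mouse model of familial Alzheimer's disease whose transgenes are driven by a neuronal promoter), and 5xFAD combined with a knockout of MAGL that was labelled astrocyte-specific, neuron-specific or global; these are called the libraries labelled astrocyte KO, neuron KO and global KO. MAGL is monoacylglycerol lipase, the enzyme that degrades the endocannabinoid 2-AG, and is encoded by Mgll. The 5xFAD transgenes are shared by all libraries except wild type. The Cre drivers, the age of the mice and the number of animals pooled were not stated in the sources used here; all 5 labels carried the same batch name, v3. With 1 library a group, animals, preparation and genotype cannot be told apart, no test was made between genotypes, and every interval between libraries covers counting error only.

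The libraries held 4050 to 7498 nuclei and 101931020 to 159532813 UMIs (unique molecular identifiers, each 1 counted RNA molecule). Pairs of libraries shared 29 to 63 cell barcodes, and 838 of the nuclei used had a barcode found in more than 1 library. Values are given below in a fixed order: wild type, 5xFAD, then the libraries labelled astrocyte KO, neuron KO and global KO. In that order Mgll stood at 74.3, 77.7, 92.4, 92.6 and 80.4 CPM (UMI counts-per-million) over all nuclei, so it was not lower in any library labelled KO than in 5xFAD. In excitatory neurons it stood at 74.7 CPM in 5xFAD and 93.1 CPM in the library labelled neuron KO. In astrocytes it stood at 346 CPM (83 UMIs) in 5xFAD and 483 CPM (87 UMIs) in the library labelled astrocyte KO. UMIs summed over a gene do not show whether an exon is missing, so the labels are kept as labels. The share of UMIs from genes shorter than 10 kb was 4.95, 4.73, 6.74, 6.76 and 5.05% in the 5 libraries. Among nuclei that could be called by Xist or Y-linked RNA, 54.9, 35.8, 55.7, 79.0 and 51.2% carried Xist.

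The members are mostly short genes spread over 19 chromosomes. Their length ran from 953 bp (Cox6a2) to 105382 bp (Cox7b2), with a median of 7245 bp against 12298 bp over all annotated features. Of the 86, 60 were shorter than 10 kb. Of the 85 protein-coding members, 19 (22.4%) started within 1000 bp of the start of a protein-coding gene running the opposite way, against 6.79% of 21951 protein-coding genes. The closest of these pairs were Ndufa7 with Rps28, 10 bp apart, Ndufb9 with Tatdn1, 18 bp apart, and Sdha with Ccdc127, 29 bp apart.

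Promoters of 70 members were matched in the RefSeq table of GRCm38.p6, 2 of them by a synonym, each spanning 250 bases before to 50 after the start. The following 5 are shown because they carry the motif classes counted below or belong to the members whose RNA departed furthest from the rest. Capitals mark matches, in the reverse complement too, to the NRF1 motif GCGCANGCG, the ETS motif CCGGAAG or the YY1 motif AAGATGGC, and each sequence reads 5′ to 3′ along the gene.
Cox6a1, chr5:115348909-115349208, minus strand: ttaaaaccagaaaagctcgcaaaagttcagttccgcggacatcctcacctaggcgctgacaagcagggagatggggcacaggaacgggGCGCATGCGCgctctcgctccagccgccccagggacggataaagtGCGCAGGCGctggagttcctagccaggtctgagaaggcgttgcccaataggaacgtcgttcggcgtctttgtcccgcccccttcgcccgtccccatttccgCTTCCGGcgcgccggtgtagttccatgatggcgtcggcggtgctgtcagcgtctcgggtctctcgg
Sdhb, chr4:140961021-140961320, plus strand: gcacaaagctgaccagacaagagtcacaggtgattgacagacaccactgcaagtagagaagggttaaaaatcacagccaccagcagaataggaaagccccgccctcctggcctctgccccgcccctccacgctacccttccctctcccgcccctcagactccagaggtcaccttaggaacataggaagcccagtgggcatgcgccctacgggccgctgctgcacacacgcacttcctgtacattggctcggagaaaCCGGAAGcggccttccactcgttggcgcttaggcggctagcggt
Ndufs4, chr13:114388045-114388344, minus strand: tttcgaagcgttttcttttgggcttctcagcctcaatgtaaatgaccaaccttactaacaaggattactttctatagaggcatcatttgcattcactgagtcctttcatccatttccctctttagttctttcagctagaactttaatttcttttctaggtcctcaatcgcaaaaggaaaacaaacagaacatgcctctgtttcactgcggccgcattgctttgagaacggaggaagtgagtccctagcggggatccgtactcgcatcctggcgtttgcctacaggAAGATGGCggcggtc
Cox7c, chr13:86046746-86047045, minus strand: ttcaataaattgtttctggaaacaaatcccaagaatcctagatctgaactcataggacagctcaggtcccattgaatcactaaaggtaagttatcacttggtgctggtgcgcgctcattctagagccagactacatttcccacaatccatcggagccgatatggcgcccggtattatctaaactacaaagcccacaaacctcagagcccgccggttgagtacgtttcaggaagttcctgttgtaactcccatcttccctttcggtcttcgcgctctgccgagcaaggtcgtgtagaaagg
Cox7b2, chr5:71548156-71548455, minus strand: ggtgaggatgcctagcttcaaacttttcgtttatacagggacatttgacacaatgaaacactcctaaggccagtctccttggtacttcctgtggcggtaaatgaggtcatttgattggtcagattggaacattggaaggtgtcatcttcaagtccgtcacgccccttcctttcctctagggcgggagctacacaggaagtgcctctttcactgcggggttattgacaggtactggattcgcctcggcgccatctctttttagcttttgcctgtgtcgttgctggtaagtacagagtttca

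Counting from 1 at the RefSeq start, the promoter of Cox6a1, a ubiquitous complex IV subunit, matched NRF1 at -162 and -117 and, overlapping the first on the opposite strand, at -161. It matched ETS at -16. Sdhb, the iron-sulfur subunit of complex II, matched ETS at 7, and Ndufs4, a complex I subunit whose loss causes Leigh-like disease, matched YY1 at 36. Cox7c and Cox7b2 held none of the 3 motifs in this window.

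NRF1, a transcription factor known for activating respiratory chain genes, had its motif in 19 of the 70 promoters (27.1%), against 6.47% of all 27025 promoters of the same length. The ETS motif, read by GABP (also known as NRF2), was in 16 (22.9%) against 9.12%. The YY1 motif was in 9 (12.9%) against 2.88%, 7 of them in complex I and 2 in complex V. The ERR motif CAAGGTCA was in 4 (5.71%) against 1.53%. Motifs common to many promoters differed less, with Sp1 GGGCGG in 41.4% against 35.9% and NF-Y CCAAT in 42.9% against 37.9%. At least 1 of NRF1, ETS and YY1 was present in 37 members (52.9%) against 16.5% of all promoters, and no member held all of them. The members' promoters had a median GC content of 57.8% against 52.7%, and its part in these shares was not tested. By complex, NRF1 was found in 8 of 34 promoters of complex I, 2 of 3 of complex II, 2 of 5 of complex III, 1 of 13 of complex IV and 6 of 15 of complex V.

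Nuclei were clustered without the members, and clusters were named from marker genes, so that excitatory neuron, astrocyte and so on below stand for clusters that are excitatory neuron-like or astrocyte-like. Excitatory neurons were the largest class, with 3687, 3513, 4296, 2700 and 5266 nuclei. Levels are CPM taken over all UMIs of the class in that library. Summed over the 86 members, excitatory neurons stood at 1439, 1452, 1955, 1849 and 1432 CPM. Wild type, 5xFAD and the library labelled global KO lay between 1432 and 1452 CPM, and the other 2 lay higher. The median UMIs per nucleus were 16860, 17176, 14073.5, 17960 and 14857, so the 2 libraries with the higher member share were the shallowest and the deepest by this measure. Counted per nucleus, member UMIs averaged 33.2, 31.6, 35.2, 43.9 and 28.0.

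The comparison of 5xFAD with wild type asks what the transgenes change. A member was tested where the 2 libraries together gave at least 50 UMIs, and a log2 ratio (of CPM plus a pseudocount of 5) of at least 0.3 in size was counted as a difference. In excitatory neurons 79 members were tested. The 7 untested ones were the isoforms Cox4i2, Cox6a2, Cox6b2, Cox7a1, Cox8b, Cox8c and Ndufa4l2. No member was past 0.3, where 1.17% of 16917 genes were. The members' median log2 ratio was 0.00 (-0.08 to 0.09), beside -0.01 over all genes. The bounds in brackets beside a median are the medians of the members' own 95% counting bounds. Single members lay between -0.14 (Ndufc1) and 0.13 (Ndufb7). By complex the medians were -0.02, 0.04, 0.00, 0.02 and 0.03 for complexes I to V. The 13 mitochondrially encoded genes, of which 12 were tested, had a median of 0.24 with 5 past 0.3.

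In the library labelled astrocyte KO against 5xFAD, 57 of 79 members were higher in excitatory neurons and 1 was lower, where 13.4% of 17182 genes were higher and 1.11% lower. The members' median log2 ratio was 0.37 (0.29 to 0.45), beside 0.11 over all genes. Against the same 5xFAD library, 42 of 79 were higher and 1 lower in the library labelled neuron KO, where 12.5% of 16916 genes were higher and 1.71% lower, with a median of 0.31 (0.22 to 0.40) beside 0.09. For the library labelled global KO none of the 79 was past 0.3, where 3.37% of genes were, and the median was -0.03 (-0.10 to 0.05) beside 0.02. These 3 comparisons share the 5xFAD library. The share over all genes depends on the pseudocount. With 1 CPM in place of 5, 63 and 56 of 79 members were higher in the libraries labelled astrocyte KO and neuron KO. There 32.1% and 29.9% of genes were higher. In each of the 2 libraries 1 member was then lower, where 2.08% and 3.06% of genes were. Scaling by median-of-ratios size factors in place of the class total, which changes the scale of the libraries labelled astrocyte KO and neuron KO against 5xFAD by -0.27 and -0.23 (log2, before the pseudocount), gave member medians of 0.18 and 0.16, beside all-gene medians of -0.01 and -0.01. On that scale 15 of 79 members were higher and 1 lower in the library labelled astrocyte KO, where 3.91% of genes were higher and 8.67% lower, and 11 were higher and 1 lower in the library labelled neuron KO, where 4.72% were higher and 8.92% lower. In the library labelled global KO, Cox7b2 lay just short of the threshold by class total (-0.30) and past it with size factors (-0.35).

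**Figure D1:**
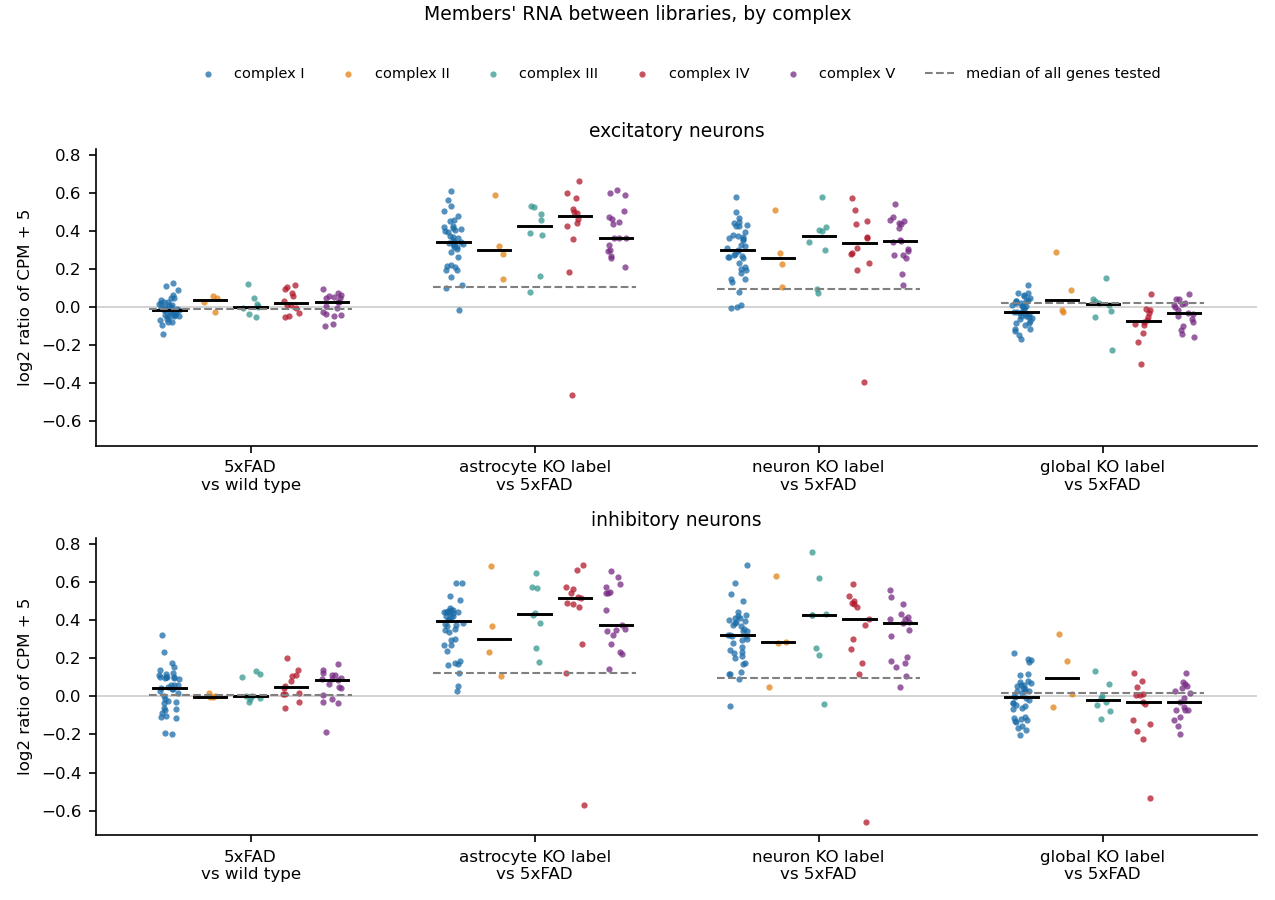
Log2 ratios of the tested members between libraries, by complex, in excitatory neurons (upper panel) and inhibitory neurons (lower panel). Each point is 1 member, black bars are medians of a complex and dashed lines the median of all genes tested. In excitatory neurons all 5 complexes have medians of 0.30 or more in the library labelled astrocyte KO, while in the library labelled global KO they lie between -0.07 and 0.04.

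The higher members came from every complex. For the library labelled astrocyte KO the medians of complexes I to V were 0.34, 0.30, 0.42, 0.48 and 0.36, with 27 of 38, 2 of 4, 6 of 8, 10 of 12 and 12 of 17 members higher. They were 0.30, 0.26, 0.37, 0.34 and 0.35 in the library labelled neuron KO, with 18, 1, 5, 7 and 11 members higher. They were -0.03, 0.04, 0.02, -0.07 and -0.03 in the library labelled global KO. Over all genes 13.4 and 12.5% were higher in the libraries labelled astrocyte KO and neuron KO. In complex II of the library labelled neuron KO only Sdhb was higher, too few to set apart from that share. The share of member UMIs that came from complex I, 43.1% ± 1.05 (SD, n = 5 libraries) in excitatory neurons, ran from 41.7 to 44.2% over the libraries.

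In complex I, which oxidizes NADH, the core subunits that carry the flavin and the iron-sulfur clusters were measured at very different depths. Ndufv1, the flavin-binding subunit, stood at 8.40, 8.66, 13.7, 12.1 and 9.78 CPM, log2 ratios against 5xFAD of 0.45, 0.32 and 0.11 in the libraries labelled astrocyte KO, neuron KO and global KO. Ndufs7, a core subunit with an iron-sulfur cluster near the quinone site, stood at 7.43, 7.43, 11.7, 10.9 and 6.49 CPM (0.42, 0.36 and -0.11). Both were higher in the libraries labelled astrocyte KO and neuron KO than in the other 3. Ndufs1, the largest core subunit, stood at 64.2, 63.5, 73.3, 74.2 and 62.2 CPM (0.19, 0.21 and -0.03) and did not pass 0.3. Ndufv2, its neighbour in the electron-input module, stood at 56.0, 57.5, 62.8, 58.0 and 53.9 CPM, within 0.12 of 5xFAD in each library on the log2 scale.

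In the libraries labelled astrocyte KO and neuron KO the extremes of complex I were accessory subunits. Ndufb9 had the highest ratio in the library labelled astrocyte KO (15.3, 15.2, 25.8, 22.2 and 15.7 CPM, log2 ratio 0.61), and Ndufa4, now usually counted with complex IV, the highest in the library labelled neuron KO (18.5, 17.5, 26.9, 28.5 and 16.9 CPM, 0.58). Ndufs4, at chr13:114287795-114388258 (GRCm38) one of the longest members, had the lowest ratio in both. It stood at 100.1, 108.4, 107.3, 108.1 and 103.8 CPM, with log2 ratios of -0.01 and 0.00 against 5xFAD. Complex I ran in the library labelled global KO from -0.17 (Ndufa2) to 0.11 (Ndufv1).

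Complex II, succinate dehydrogenase, takes electrons from the tricarboxylic acid cycle and is anchored by Sdhc and Sdhd. Sdhb, at chr4:140961203-140979193 (GRCm38) and with the ETS match in its promoter above, stood at 22.5, 22.9, 37.0, 34.7 and 29.1 CPM, so that wild type and 5xFAD were the 2 lowest. Its log2 ratios against 5xFAD were 0.59 (0.52 to 0.66), 0.51 (0.43 to 0.59) and 0.29 (0.22 to 0.36) in the libraries labelled astrocyte KO, neuron KO and global KO. The last is the highest of all 79 members in that library and just under the 0.3 threshold. Sdha, the flavoprotein, stood at 52.5, 54.8, 67.6, 67.8 and 58.7 CPM, and Sdhc at 24.7, 24.2, 27.3, 26.4 and 23.7 CPM, neither past 0.3 in any comparison. Sdhd stood at 4.90, 5.23, 7.79, 6.97 and 5.12 CPM, with log2 ratios of 0.32, 0.23 and -0.02.

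The order of the libraries for Sdhb was alike in the neuron groups described. In CA1 neurons it stood at 24.2, 24.4, 44.1, 43.4 and 33.0 CPM, in dentate granule cells at 19.7, 19.7, 30.1, 27.8 and 25.7 CPM and in inhibitory neurons at 26.3, 26.2, 45.1, 43.3 and 34.1 CPM. In all of these groups wild type and 5xFAD were lowest and the library labelled global KO lay between them and the other 2. The 26 tested genes within 1 Mb of Sdhb had median log2 ratios of 0.10, 0.11 and 0.03 in the libraries labelled astrocyte KO, neuron KO and global KO against 5xFAD. Past 0.3, 3, 6 and 3 of them were higher and 0 lower. Over all genes 13.4, 12.5 and 2.35% were higher and 1.11, 1.71 and 1.02% lower. In the library labelled global KO the highest of these neighbours was at 0.64, above Sdhb itself.

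Complex III passes electrons from ubiquinol to cytochrome c. Uqcrfs1, the Rieske iron-sulfur protein, stood at 6.26, 6.29, 11.3, 9.90 and 6.39 CPM (log2 ratios 0.53, 0.40 and 0.01). Uqcrq, a small accessory subunit, stood at 10.1, 10.1, 16.7, 17.5 and 10.4 CPM (0.53, 0.58 and 0.03). For both genes wild type, 5xFAD and the library labelled global KO lay close together, and the other 2 libraries lay above them. The large core proteins differed from each other: Uqcrc1 stood at 17.3, 16.7, 24.8, 22.5 and 19.1 CPM (0.46, 0.34 and 0.15), and Uqcrc2 at 44.6, 45.1, 51.0, 47.7 and 46.6 CPM (0.16, 0.07 and 0.04). Uqcrb had the lowest value of complex III in the library labelled global KO, at 6.79, 7.84, 8.57, 8.70 and 5.96 CPM (log2 ratio -0.23).

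Complex IV, cytochrome c oxidase, hands the electrons to oxygen, and its nuclear subunits surround a catalytic core encoded by mitochondrial DNA. Cox7c, at chr13:86044816-86046904 (GRCm38), stood at 30.1, 29.0, 48.7, 45.5 and 30.7 CPM, with log2 ratios of 0.66 (0.59 to 0.73), 0.57 (0.50 to 0.64) and 0.07 (0.00 to 0.14). The ratio of 0.66 was the highest of all members in the library labelled astrocyte KO. Cox4i1, the ubiquitous form of the regulatory subunit 4, stood at 34.0, 33.3, 52.9, 47.3 and 31.8 CPM (0.60, 0.45 and -0.05), and Cox8a at 19.1, 20.8, 33.3, 31.8 and 20.3 CPM (0.57, 0.51 and -0.03). Cox5a, which together with Cox5b sits on the matrix side, stood at 19.7, 21.6, 32.6, 26.2 and 20.0 CPM (0.50, 0.23 and -0.09).

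Cox7b2 went the opposite way. It is a paralog of the ubiquitous subunit Cox7b that is known from testis, and as the longest member it lies at chr5:71442824-71548205 (GRCm38). In excitatory neurons Cox7b2 stood at 9.04, 9.34, 5.42, 5.91 and 6.65 CPM, so that all 3 libraries labelled KO were below wild type and 5xFAD. The log2 ratios against 5xFAD were -0.46 (-0.56 to -0.36), -0.39 (-0.50 to -0.29) and -0.30 (-0.39 to -0.21), the first 2 past the threshold and the last just inside it. Cox7b itself stood at 34.3, 34.2, 50.9, 43.6 and 33.9 CPM. Because the summed reads of a gene this long can come from introns, a spliced Cox7b2 transcript was not shown.

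Cox7b2 was also lower in the libraries labelled KO than in wild type and 5xFAD in dentate granule cells, where it stood at 14.1, 14.8, 7.65, 6.70 and 9.70 CPM (log2 ratios -0.65, -0.76 and -0.43), and in inhibitory neurons, at 11.3, 12.6, 6.83, 6.14 and 7.11 CPM (-0.57, -0.66 and -0.54). In CA1 neurons it stood at 7.06, 7.47, 4.96, 5.88 and 5.35 CPM (-0.32, -0.20 and -0.27). In each of these groups wild type and 5xFAD were the 2 highest libraries. The 7 tested genes within 1 Mb had median log2 ratios of 0.19 and 0.07 in the libraries labelled astrocyte KO and global KO, and 6 tested genes one of 0.12 in the library labelled neuron KO. Past 0.3, 1 of these neighbours was higher in each of the libraries labelled astrocyte KO and neuron KO and 0 in that labelled global KO, and 0 were lower. Over all genes of excitatory neurons 13.4, 12.5 and 2.35% were higher and 1.11, 1.71 and 1.02% lower. Over all libraries Cox7b2 had 0 UMIs in microglia and in oligodendrocytes, where counting error allows up to 4.00 and 0.880 CPM.

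Complex V, the ATP synthase, has a catalytic head, a membrane rotor and a stator joining them. In the head, Atp5a1 stood at 47.8, 48.0, 63.3, 54.9 and 49.7 CPM (log2 ratios 0.36, 0.18 and 0.04) and the catalytic subunit Atp5b at 34.9, 36.4, 57.6, 50.2 and 37.6 CPM (0.60, 0.41 and 0.04). Atp5g1, which encodes the rotor's c-ring subunit, stood at 10.1, 10.8, 19.2, 16.4 and 10.8 CPM (0.61, 0.43 and 0.00). Its paralogs Atp5g2 and Atp5g3 encode the same mature protein and had log2 ratios of 0.36, 0.27 and -0.10, and of 0.46, 0.47 and 0.02. In the stator, Atp5h stood at 12.9, 13.9, 23.3, 22.5 and 14.1 CPM (0.59, 0.54 and 0.02), while Atp5f1 stood at 41.5, 43.1, 50.5, 47.2 and 41.5 CPM and had the lowest ratios of complex V, 0.21 and 0.12, in the libraries labelled astrocyte KO and neuron KO.

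**Figure D2:**
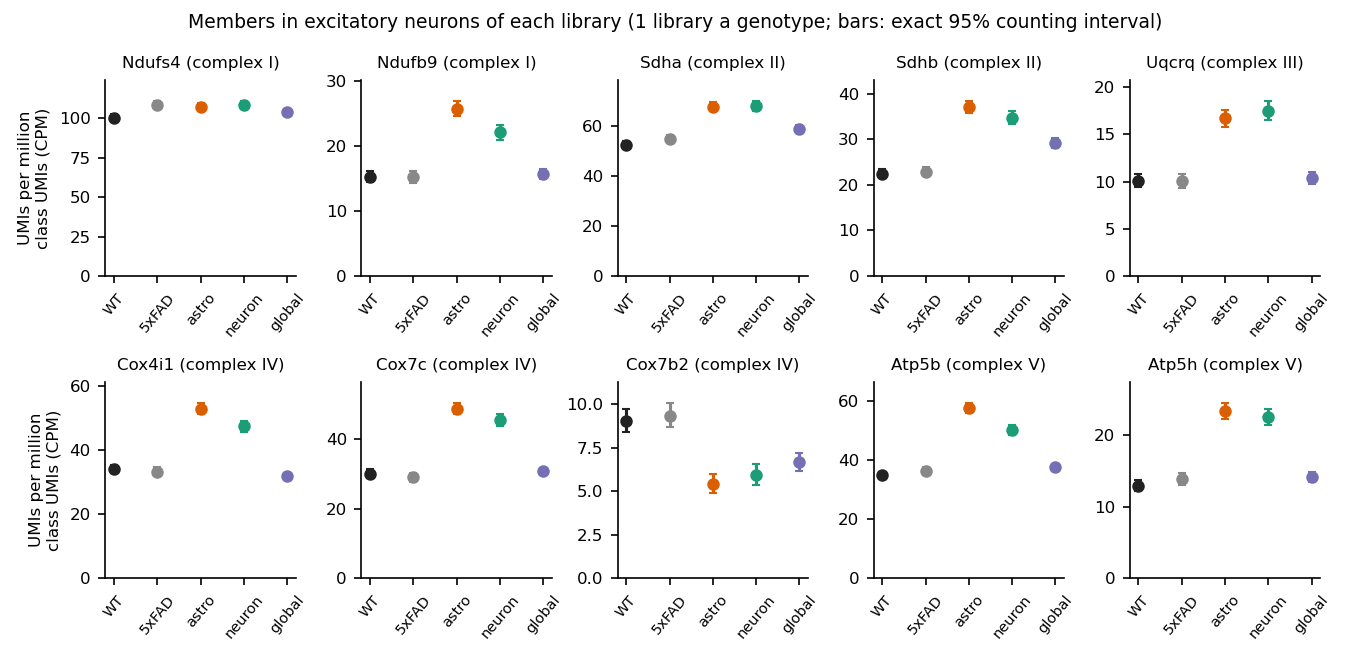
Levels of 10 members in excitatory neurons, in CPM of the class, for the 5 libraries; bars are exact 95% counting intervals and each vertical axis starts at 0. Cox7c reaches 48.7 and 45.5 CPM in the libraries labelled astrocyte KO and neuron KO against 29.0 in 5xFAD, Ndufs4 stays between 100.1 and 108.4, Sdhb is also higher in the library labelled global KO (29.1) than in 5xFAD (22.9), and Cox7b2 is lowest in the 3 libraries labelled KO.

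The size of a member's ratio went with the length of its gene. Across the 79 members Spearman's rho between length and log2 ratio was -0.45 in the library labelled astrocyte KO and -0.63 in the library labelled neuron KO, beside -0.32 and -0.34 across all genes tested. It was -0.02 for 5xFAD against wild type and 0.08 for the library labelled global KO. Genes of a library share its depth and preparation, so these values describe the libraries. Members shorter than 10 kb had medians of 0.41 and 0.37 in the libraries labelled astrocyte KO and neuron KO, with 46 and 38 of 54 higher, and the longer members 0.28 and 0.21, with 11 and 4 of 25 higher. Over all genes 13.4 and 12.5% were higher, so that the 4 longer members in the library labelled neuron KO are near that share. All genes shorter than 10 kb had medians of 0.14 and 0.14, with 19.9 and 18.9% higher. The pseudocount draws weakly measured genes towards 0, and summed over their UMIs they gave 0.51 and 0.51, beside 0.58 and 0.49 for the short members summed the same way.

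**Figure D3:**
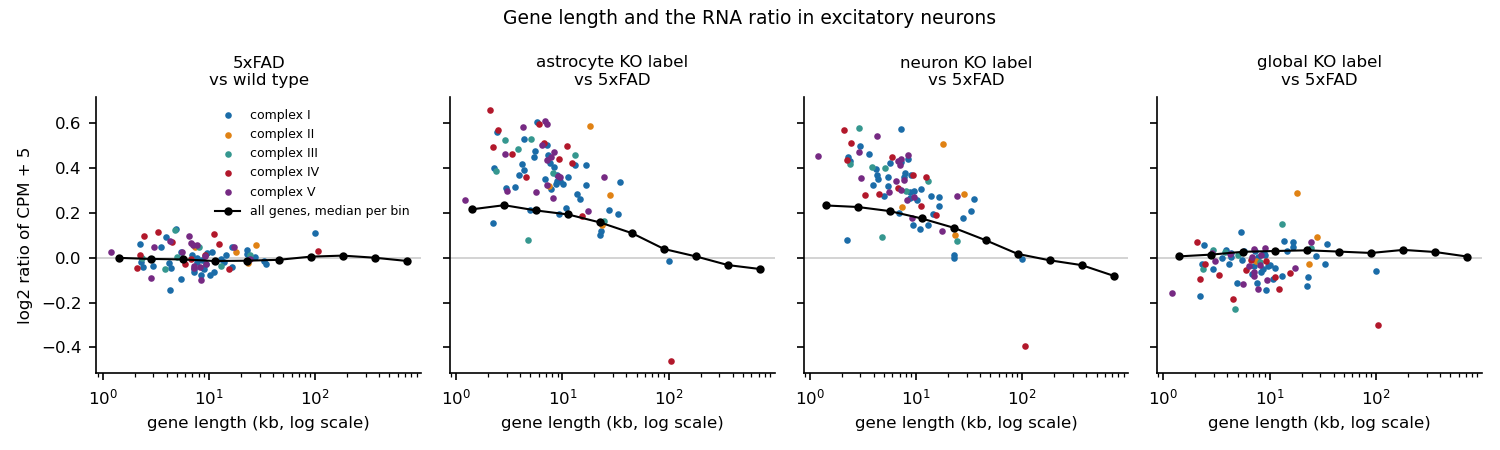
Gene length in kb (log axis) against the log2 ratio in excitatory neurons, 1 panel per comparison; coloured points are the tested members by complex, and the black line joins medians of all genes with at least 200 UMIs in each length bin. In the library labelled astrocyte KO the line falls from 0.23 at 2 to 4 kb to -0.05 at 512 to 1024 kb, and the members shorter than 10 kb have a median of 0.41.

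Other gene lists, chosen with earlier results known, are set beside the members in excitatory neurons, where 13.4 and 12.5% of all genes were higher in the libraries labelled astrocyte KO and neuron KO. The cytosolic ribosomal proteins, short and highly transcribed genes of translation, had medians of 0.49 and 0.41 in these libraries against 5xFAD, with 75 and 69 of 80 higher. The mitochondrial ribosome had 0.26 and 0.22 (28 and 23 of 78). The proteasome had 0.24 and 0.19 (13 and 6 of 35, the latter near the share over all genes). The assembly factors of the respiratory complexes had 0.22 and 0.19 (12 and 9 of 43) and protein import 0.19 and 0.23 (9 and 8 of 25). The tricarboxylic acid cycle had 0.18 and 0.13 (2 and 3 of 17, near the share over all genes). The 12 regulators of mitochondrial genes, among them Ppargc1a, Nrf1, Gabpa and Esrra, had medians of 0.01 and -0.02 with 0 past 0.3 in either direction. The mitochondrially encoded subunits had 0.07 and 0.20. The part of gene length in the members' ratios was not tested. In nuclei with Xist UMIs alone the members' medians were 0.37 and 0.35 in these libraries. There 54 and 45 of 79 members were higher and 1 lower in each, where 18.9% and 17.3% of genes were higher. With Y-linked UMIs alone 51 and 31 of 79 were higher and 1 lower in each, where 15% and 16% of genes were higher. Over all excitatory nuclei 57 and 42 of 79 were higher.

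Inhibitory neurons gave a second neuronal class with the same genotypes. The members' sum was 1679, 1743, 2365, 2229 and 1734 CPM. For 5xFAD against wild type the median was 0.04, and 1 of 79 members was past 0.3 (Ndufs5, 0.32), where 3.16% of genes were. The median was 0.42 in the library labelled astrocyte KO, with 58 of 80 higher and 1 lower, where 17.8% of genes were higher and 1.94% lower. It was 0.35 in the library labelled neuron KO, with 48 higher and 1 lower, where 16.0% of genes were higher and 2.19% lower. It was -0.01 in the library labelled global KO, with Sdhb (0.33) higher and Cox7b2 (-0.54) lower, where 4.36% of genes were past 0.3. With size factors the inhibitory medians were 0.26 and 0.21 in the libraries labelled astrocyte KO and neuron KO, beside -0.02 over all genes in both. On that scale 29 and 20 of 80 members were higher, where 7.06% and 7.48% of genes were, and 1 was lower in each, where 9.05% and 8.76% were; in the library labelled global KO Sdhb was no longer past 0.3. In nuclei with Xist UMIs alone the inhibitory medians were 0.26 and 0.24 in the libraries labelled astrocyte KO and neuron KO, on fewer UMIs. There 33 and 31 of 79 members were higher and 1 lower in each, where 28.7% and 28.9% of genes were higher and 5.60% and 6.83% lower. With Y-linked UMIs alone 56 of 79 and 45 of 76 were higher and 2 lower in each, where 23.6% and 28.0% of genes were higher and 6.51% and 11.7% lower. By class total over all inhibitory nuclei, the single lower member was Cox7b2 in each of these libraries. The highest ratios were those of Cox5b (10.1, 10.2, 19.5, 16.3 and 8.76 CPM, 0.69) in the library labelled astrocyte KO and of Uqcrq (0.76) in the library labelled neuron KO.

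Among excitatory subclasses the medians for 5xFAD against wild type lay between -0.01 and 0.04. For the library labelled astrocyte KO they were 0.35 in dentate granule cells, 0.40 in CA1, 0.38 in CA3 and 0.39 in other excitatory neurons, and for the library labelled neuron KO 0.25, 0.36, 0.31 and 0.33. For the library labelled global KO they lay between -0.05 and -0.01. Over all genes the medians were 0.13, 0.14 and 0.13 in dentate granule cells, CA1 and CA3 for the library labelled astrocyte KO. For the library labelled neuron KO the all-gene medians were 0.10, 0.11 and 0.11.

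In glia few members reached 50 UMIs, so the summed level is given. Oligodendrocytes, the myelin-forming cells, stood at 1956, 1696, 2242, 2079 and 1746 CPM. The summed log2 ratio was -0.21 (-0.30 to -0.11) for 5xFAD against wild type, and 0.40 (0.31 to 0.50), 0.29 (0.20 to 0.39) and 0.04 (-0.07 to 0.15) for the libraries labelled astrocyte KO, neuron KO and global KO against 5xFAD. In oligodendrocytes, unlike neurons, 5xFAD lay below wild type beyond counting error, but the difference between the classes was not tested; beside it, the cytosolic ribosomal proteins summed to -0.20 and all genes shorter than 10 kb to -0.06. For the libraries labelled astrocyte KO and neuron KO, all genes shorter than 10 kb summed in oligodendrocytes to 0.36 and 0.30, close to the members' values. Oligodendrocyte precursors stood at 1713, 1604, 2019, 1953 and 1608 CPM. Astrocytes, with 70, 46, 47, 28 and 32 nuclei, stood at 3236, 2964, 3490, 3149 and 3268 CPM, and the library labelled astrocyte KO was 0.24 (0.08 to 0.39) above 5xFAD, where all genes shorter than 10 kb summed to 0.39. Microglia stood at 2427, 2329, 2745, 2442 and 2385 CPM.

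Across cell classes each library gives its own comparison, so the 5 libraries serve as replicates of a class difference. They differ in genotype, so the SD of a level also holds the differences between libraries described above. Averaged over the libraries, the members took 3221 ± 191 CPM (SD, n = 5) in astrocytes, 2466 ± 162 in microglia, 1950 ± 321 in inhibitory neurons, 1944 ± 228 in oligodendrocytes, 1780 ± 195 in oligodendrocyte precursors, 1681 ± 230 in dentate granule cells, 1630 ± 274 in CA1, 1618 ± 260 in other excitatory neurons and 1464 ± 235 in CA3. Of the 36 pairs of classes, 32 had the same direction in 5 of 5 libraries, with an exact two-sided sign-flip permutation p = 0.0625 (Benjamini-Hochberg adjusted 0.0703), which is the smallest p that 5 libraries allow, so no pair could pass 0.05. The pairs whose direction was not the same in every library were inhibitory neurons and oligodendrocytes, inhibitory neurons and oligodendrocyte precursors, dentate granule cells and CA1, and CA1 and other excitatory neurons.

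**Figure D4:**
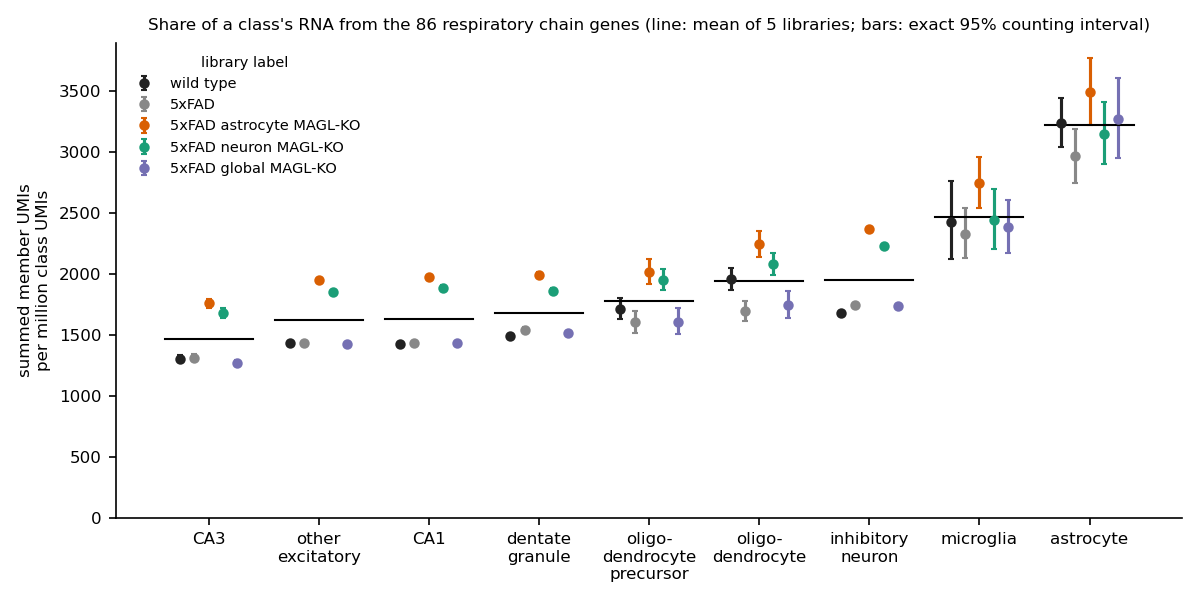
Summed member level, in CPM of the class, in 9 cell classes, with 1 point per library, exact 95% counting intervals and a line at the mean of 5 libraries; the axis starts at 0. Astrocytes, as named from clusters, lie highest (mean 3221) and CA3 neurons lowest (1464), and the libraries labelled astrocyte KO and neuron KO lie above the other 3 in each neuronal class.

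Relative to excitatory neurons of the same library, the log2 level was 1.00 ± 0.19 (SD, n = 5) in astrocytes, 0.61 ± 0.16 in microglia, 0.26 ± 0.02 in inhibitory neurons, 0.26 ± 0.11 in oligodendrocytes and 0.14 ± 0.08 in precursors. Where nuclei were assigned by the highest marker score alone, the astrocyte and microglia values fell to 0.30 and 0.27 and that of inhibitory neurons was 0.31, so that astrocytes no longer led. Nuclei of these glia were shallow, with median UMIs of 3334 to 4543 in astrocytes and 2038 to 2821 in microglia. With nuclei of at least 2000 UMIs thinned to 2000, the log2 levels over excitatory neurons were 1.01 ± 0.15 (SD, n = 5) in astrocytes and 0.54 ± 0.21 in microglia, and above 0 in 5 of 5 libraries. Shallower nuclei were dropped, which kept all astrocytes but only 29 of 43, 65 of 85, 65 of 122, 48 of 52 and 52 of 95 microglia. Genes shorter than 10 kb took 94896 CPM in astrocytes, 106328 in microglia and 95260 in oligodendrocytes against 56127 in excitatory neurons. In the same order the cytosolic ribosomal proteins took 2511, 4080 and 1905 CPM against 1193 in excitatory neurons. Mitochondrially encoded genes took 1146, 2940 and 383 CPM against 131. The lists thus also stood higher in these glia, and the part of this in the members' order was not tested.

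Inhibitory neurons were above excitatory neurons in most members. Of 79 tested, 68 were higher in all 5 libraries and 0 lower, where 38.0% of 16782 genes were higher and 23.6% lower in all 5. The median over members was 0.21, beside 0.03 over all genes. A mean log2 ratio past 0.3 with the same direction in 5 libraries was found for 12 members upward and 0 downward, where 10.3% of genes were higher and 7.85% lower. The widest gap, among examples taken after the values were seen, was that of Cox7b, at 57.3 against 39.4 CPM (0.49 ± 0.04, SD, n = 5). Cox5a followed at 34.2 against 24.0 (0.44), then Atp5a1 at 72.5 against 52.7 (0.43). Ndufs3, a core subunit of complex I, was the lowest at 31.0 against 32.3 (-0.05). Genes shorter than 10 kb took 54942 CPM in inhibitory and 56127 CPM in excitatory neurons.

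Within excitatory neurons the members were compared between subclasses. Of 79 members, 36 were lower and 1 higher in CA3 than in CA1 in all 5 libraries, where 33.6% of genes were lower and 18.5% higher, and the members' median was -0.15 beside -0.06 over all genes. Between dentate granule cells and CA1, 20 were higher and 10 lower in all 5, where 35.8% of genes were higher and 27.3% lower. By the threshold of 0.3, 3 of 79 members were higher and 1 lower in dentate granule cells, where 16.6% of genes were higher and 14.4% lower. Cox7b2 stood at 10.6 against 6.15 CPM (log2 ratio 0.46), Atp5g2 at 22.2 against 16.0 (0.38), Ndufv3 at 21.3 against 16.0 (0.33), and Sdhb at 24.6 against 33.8 (-0.37). Between CA3 and CA1, 0 of 79 were higher and 4 lower, where 9.97% of genes were higher and 15.5% lower; the 4 were Ndufa13 (7.65 against 11.3 CPM, -0.36), Sdhb (-0.32), Uqcrh (-0.31) and Uqcrfs1 (-0.30). The counts past 0.3 lie below the share over all genes.

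Between oligodendrocytes and excitatory neurons, 23 of 62 members were higher and 3 lower, where 51.6% of genes were higher and 16.7% lower. This background is set by genes that passed the filter in the shallower class. Both counts lie below the share over all genes, and the members' median was 0.25 beside 0.40 over all genes. Ndufb11, an accessory subunit of complex I, stood at 20.1 against 7.29 CPM (1.03) and Atp5g2 at 38.9 against 17.5 (0.97). Atp5md (-0.43), Ndufs3 (-0.43) and Ndufs4 (-0.37) were lower. In astrocytes only 23 of 86 members passed the filter on low counts. Of these, 19 were higher and 0 lower, where 50.2% of 3678 genes were higher and 15.1% lower, and their median was 0.91 beside 0.48 over all genes. In both pairs a member weak in excitatory neurons passed the filter only if it was high in the glia, so it had to differ. Nothing is read from the counts of higher members or from the higher members named here. Ndufc2 stood at 87.4 against 17.3 CPM (2.00), followed by Cox8a at 72.8 against 25.1 (1.38), both chosen after the values were seen.

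Levels of different members are set side by side per kb of the whole gene, introns included; whether UMIs scale with this length was not tested. In complex IV of excitatory neurons Cox7c gave 17.6 CPM per kb and Cox7b2, whose gene is the longest, 0.0690. The highest and lowest were Ndufb10 (4.30) and Ndufs6 (0.493) in complex I, Sdha (2.15) and Sdhd (0.805) in complex II, Uqcrq (4.45) and Uqcrc1 (1.55) in complex III, and Atp5b (6.09) and Atp5e (1.31) in complex V. All are means over 5 libraries of members with a level above the filter.

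The isoforms known from other tissues were scarce but not evenly spread. Cox6a2, the heart and muscle form of subunit 6a, had 152 UMIs in inhibitory neurons over 5 libraries, 1.27 CPM (1.07 to 1.49), against 40 UMIs in excitatory neurons, 0.0985 CPM (0.0704 to 0.134). Microglia had 9 UMIs in 4 libraries, 9.77 CPM (4.47 to 18.5), beside 2 UMIs in oligodendrocytes, 0.477 CPM, and 0.379 CPM over all nuclei; no level is read from so few UMIs. Of the inhibitory 152 UMIs, 54 lay in the inhibitory cluster with the most Pvalb, a marker of fast-spiking interneurons, which held 403 nuclei. Sst, another interneuron marker, was highest in a different inhibitory cluster (445 CPM). In the cluster with the most Pvalb it stood at 130 CPM, above Pvalb itself at 36.1 CPM. Cox6a2 stood there at 6.96 CPM (5.23 to 9.08), against 0.296 to 1.60 CPM in the 4 other inhibitory clusters of more than 16 nuclei. By library it stood at 3.50, 6.27, 9.36, 14.9 and 4.29 CPM in that cluster, on 5 to 16 UMIs each.

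The members as a whole were also higher in this cluster, which was singled out after its values were seen. They stood at 2303, 2531, 3048, 3060 and 2322 CPM there against 1638, 1695, 2318, 2188 and 1677 CPM in the other inhibitory neurons. The log2 ratio was 0.48 ± 0.07 (SD, n = 5) with 5 of 5 libraries above 0. Beside it the cytosolic ribosomal proteins were at -0.05 ± 0.06 and all genes shorter than 10 kb at 0.07 ± 0.04.

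Cox6b2, a form known from testis, had 34 UMIs in oligodendrocytes, 8.11 CPM (5.61 to 11.3), 9 UMIs in astrocytes, too few to read a level from, and 21 in precursors, 5.42 CPM, against 11 UMIs in excitatory neurons, 0.0271 CPM. In microglia it had 0 UMIs, which allows up to 4.00 CPM. Cox7a1, the muscle form of subunit 7a, had 95 UMIs in excitatory neurons (0.234 CPM) and Cox4i2, a form known from lung, 48 (0.118 CPM). Ndufa4l2, Cox8b and Cox8c had 15, 3 and 1 UMIs there. At these counts no difference between genotypes could be seen.

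Chromatin at the members' promoters was nearly always listed as a peak. Peaks were called by the authors in each library, and a promoter peak here is one listed within 500 bp of a gene start. Such a peak was found for 78, 78, 76, 78 and 77 of the 86 members, 88.4 to 90.7%, against 52.4 to 53.8% of all genes. Of the members, 76 had one in all 5 libraries and 8 in none, among them the scarce isoforms Cox4i2, Cox6a2, Cox8b, Cox8c and Ndufa4l2, and also Cox7b2, Ndufb1-ps and Atp5g2. The median length of a member's peak was 892.5 to 896 bp.

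Unlike the RNA, promoter counts of the members were nearly level across the libraries. In excitatory neurons they stood at 2434, 2431, 2426, 2326 and 2263 CPM of all peak counts, or 34.3, 34.8, 35.0, 32.9 and 32.7 per kb of peak. The median log2 ratios were 0.01 for 5xFAD against wild type (78 members), 0.00 for the library labelled astrocyte KO (76), -0.06 for the library labelled neuron KO (78) and -0.08 for the library labelled global KO (77), beside 0.02, 0.00, -0.05 and -0.06 over all genes. Past 0.3 in size were 1, 1, 1 and 0 members, where 1.07, 1.73, 2.15 and 1.84% of genes were. The 1 member was Ndufa13 each time, at -0.46, 0.44 and 0.36. Its listed peak was 1763, 912, 1774, 1760 and 900 bp long in the 5 libraries and its promoter stood at 74.6, 52.8, 73.3, 69.3 and 48.3 CPM of all peak counts, so the 2 libraries with the short peak also had the 2 lowest counts.

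**Figure D5:**
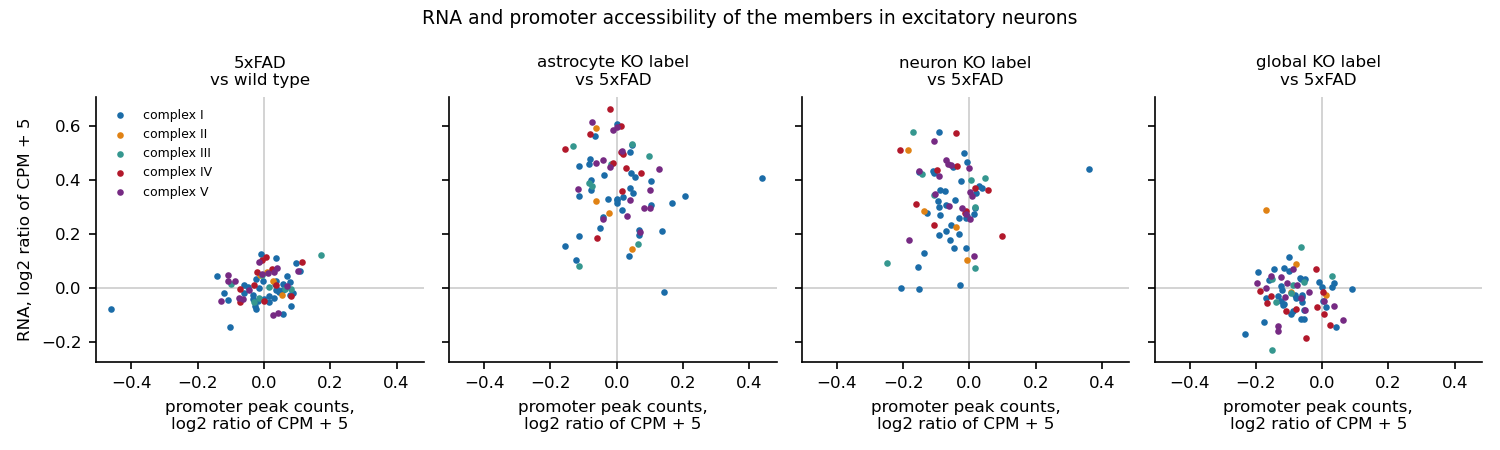
Log2 ratio of promoter peak counts (horizontal) against log2 ratio of RNA (vertical) in excitatory neurons, for the 76, 75, 76 and 75 members with both, 1 panel per comparison. In the libraries labelled astrocyte KO and neuron KO the points lie above 0 on the RNA axis for most members, while the promoter medians are 0.00 and -0.06; Ndufa13, with a peak of unequal length, lies to the side.

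The promoter motifs were also set against the RNA ratios in excitatory neurons. In the library labelled astrocyte KO the 19 tested members with the NRF1 motif had a median of 0.46 and the 48 without it 0.36, and in the library labelled neuron KO 0.34 and 0.32. With and without the ETS motif (16 and 51 members) the medians were 0.36 and 0.39, then 0.31 and 0.34. With and without the YY1 motif (9 and 58) they were 0.33 and 0.38, then 0.30 and 0.33. These are descriptions, and none of the 3 motifs separated the members by more than 0.10.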

How the data were processed

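The deposited gene and peak counts of 5 Multiome libraries were used. Per the submitters' processing notes these counts were made with Cell Ranger ARC 2.0.0 on mm10, and Seurat is named too. How reads shared with pseudogenes or close paralogs of the members were counted was not stated in the sources used here. Gene values are UMI counts and peak values are counts per peak called in each library. Nuclei with under 500 genes or over 5% mitochondrial UMIs were left out, and the top-scoring nuclei (0.8% per 1000 nuclei) were removed as doublets. Nuclei were clustered (scanpy 1.11.5, leidenalg 0.10.2) without the members, mitochondrial and ribosomal genes (190 genes left out), and named from markers; clusters with mixed markers stayed unnamed. Counts were summed per class and library and scaled to CPM. Log2 ratios used a pseudocount of 5 CPM, a minimum of 50 UMIs over 2 libraries and a threshold of 0.3. Intervals are exact for counts (Poisson or Clopper-Pearson, 95%). Those of a single gene's ratio carry the pseudocount, so they need not hold the plain ratio of the CPM values. The interval beside a list's median is the median of its members' bounds, not an interval of that median. The code was checked on simulated data, where the coverage of the intervals was checked with a smaller pseudocount only. Named members were fixed by role, by the highest and lowest ratio in each complex, and by level per kb; examples in class comparisons were chosen after the values were seen. The members and lists were chosen with earlier results of these data known. The values of 1 member are not reported here.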

Additional observations from a re-analysis of the deposited data

How the results depend on the processing

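No paired analysis was possible because each genotype has 1 library; this holds for the comparisons between genotypes, while cell classes were compared within each of the 5 libraries. Of 141 alternatives for the 17 main values, 124 kept them within the limit set for each. A change of sign was looked for only in the class levels and in medians of at least 0.3 in size, where none was found. Counts and medians nearer 0 were not checked for sign. Size factors gave medians of 0.18 and 0.16 and counts of 15 and 11 members for the libraries labelled astrocyte KO and neuron KO (0.37, 0.31, 57 and 42 by class total), where 3.91% and 4.72% of genes were higher. A pseudocount of 1 CPM gave medians of 0.51 and 0.42, beside 0.19 and 0.16 over all genes (0.11 and 0.09 with 5 CPM). The shares of genes higher were then 32.1% and 29.9%, against 13.4% and 12.5% with 5 CPM. For 5xFAD against wild type 0 of 79 members were higher and 0 lower. After thinning to 2000 UMIs 2 were higher and 3 lower (3.56% and 3.36% of genes). In nuclei with Xist only 1 was higher and 0 lower (1.46% and 1.71%). For the library labelled global KO 0 higher became 1 with a pseudocount of 1 (6.48% of genes), a mean over nuclei (2.54%), Xist nuclei only (5.66%) and dentate granule nuclei only (5.60%). Of lower members, 0 became 3 after thinning (2.86% of genes) and 2 with a pseudocount of 1 (2.31%). It became 1 with size factors (1.59%), a mean over nuclei (1.06%), Xist nuclei only (2.86%) and dentate granule nuclei only (2.18%). The same held by highest marker score (0.939%) and without shared barcodes (1.02%). Among alternatives added after seeing the data, inhibitory over excitatory neurons (0.26) came to 0.31 by highest marker score, 0.31 after thinning and 0.32 as a mean over nuclei, and by highest score astrocytes came to 0.30 (from 1.00) and microglia to 0.27 (from 0.61). Leaving out a library was not possible between genotypes. Depth limits the glia: few members reached 50 UMIs there, and in astrocytes each library held 28 to 70 nuclei.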
